A study of Mus musculus with 18 samples.

Results

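Matrix metalloproteinases (Mmp genes) are zinc enzymes that cut collagens and other matrix proteins, and tissue inhibitors of metalloproteinases (Timp genes) block them. The results below follow 10 of these genes, of 17924 tested, through mouse thyroid: the proteases Mmp2, Mmp3, Mmp9, Mmp11, Mmp13 and Mmp14 and all 4 Timp genes. The members were taken by name, through the accession that each array probe carries and not by a rule on measured values. Earlier results of these data were known when they were chosen. They were read by 13 probes, of 26510 with a gene name that passed a filter on dim probes, and all 10 passed that filter.

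Thyroids came from C57BL/6 mice at 1 month of age, 5 wild type (WT) and 5 Glis3KO2 (KO2) on the normal NIH31 diet, and 4 WT and 4 KO2 after 6 days on a Harlan low-iodine diet. Per the labels' protocols the mice were weaned at 3 weeks onto either diet and received no other treatment. Glis3KO2 mice carry a targeted Glis3, the gene of a zinc finger transcription factor of the thyroid. The sex of the mice and the deleted part of Glis3 are not given in the sources used here, nor is the relation between the mice of a group. The p-values therefore measure the spread between these samples.

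As background, metalloproteinases are secreted or held at the cell surface as inactive proenzymes. Mmp14, a membrane-anchored protease, activates the gelatinase Mmp2 in a complex that also holds Timp2, and it cuts fibrillar collagen itself. Mmp13 is a secreted collagenase, Mmp3 (stromelysin) cuts proteoglycans and activates other members, Mmp9 is the second gelatinase and is stored by neutrophils, and Mmp11 is activated inside the cell by furin. Timp proteins bind the active site, and Timp3 stays bound to the matrix and also blocks Adam proteases. In the thyroid these genes act at the basement membranes around the follicles and in the capillaries and connective tissue between them, and iodine shortage is a stimulus for the growth of both.

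Each level below is log2 of the array's processed signal after subtraction of that array's 75th percentile, so that 0 is the 75th percentile and a step of 1 is a doubling. Levels of different probes are not on 1 scale and are compared only between arrays. A gene is said to rise or fall where limma's test gave an adjusted p under 0.05 over all genes. The share of spots well above background ran from 60.1% to 75.7% on the normal-diet arrays and from 76.7% to 90.6% on the low-iodine arrays. Per the file headers, each diet's arrays were scanned on another scanner model and other slides, so an effect of diet and one of the array set cannot be told apart. One array stood apart in median signal, that of WT low-iodine replicate 2, at 191.5 against 45.0 to 85.5 on the others. Results that rest on it are given with and without it. The 6 follicular cell markers used to check the tissue (Tg, Tshr, Pax8, Nkx2-1, Foxe1 and Slc26a4) passed the filter. Mean levels over the list lay between 2.03 and 2.35 in the 4 groups. This mean hides moves of single markers. In WT 2 of the 6 fell and 4 rose from the normal-diet to the low-iodine arrays, with Foxe1 at −3.98 ± 0.31 and Pax8 at 1.63 ± 0.28 (SE). The single Glis3 probe read −6.08 to −4.79 in WT and −5.46 to −4.16 in KO2 on the normal diet, and −1.60 to −0.74 and −4.06 to −1.49 on low iodine, without a call on either diet (limma adjusted p = 0.732 and 0.0619). Whether it lies in the deleted part is not given, so it does not check the labels. Precision is limited by the 4 or 5 arrays of a group.

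The promoters of 5 members are shown for these reasons: Timp1 and Mmp14 were lower in KO2, Mmp3 and Mmp13 varied together on 1 array, and Mmp11 holds the letters of a Glis site. They are RefSeq's, from build GRCm38.p6, in a promoter table that matched 8 of the 10 members, so those of Mmp2 and Mmp9 were not used here. Each runs 5′ to 3′ from 250 bases before the annotated start to 50 after it. Capitals mark 3 motifs searched on both strands, the AP-1 site TGANTCA, the core TGGGGGGT of the site described for Glis proteins, and the TATA box letters TATAAA.
Timp1, chrX:20869916-20870215, plus strand: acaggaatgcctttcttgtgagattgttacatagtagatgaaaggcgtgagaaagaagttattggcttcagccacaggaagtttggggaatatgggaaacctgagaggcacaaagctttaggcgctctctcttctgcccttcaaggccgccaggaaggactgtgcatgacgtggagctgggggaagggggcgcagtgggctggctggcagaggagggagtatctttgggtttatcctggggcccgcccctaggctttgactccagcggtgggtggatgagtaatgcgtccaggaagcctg
Mmp14, chr14:54431348-54431647, plus strand: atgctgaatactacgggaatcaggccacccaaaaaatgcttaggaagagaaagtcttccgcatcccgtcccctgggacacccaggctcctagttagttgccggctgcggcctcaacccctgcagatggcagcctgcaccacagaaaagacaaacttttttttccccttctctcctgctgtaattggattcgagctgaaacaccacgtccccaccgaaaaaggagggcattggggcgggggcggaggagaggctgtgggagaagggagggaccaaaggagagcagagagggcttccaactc
Mmp3, chr9:7445572-7445871, plus strand: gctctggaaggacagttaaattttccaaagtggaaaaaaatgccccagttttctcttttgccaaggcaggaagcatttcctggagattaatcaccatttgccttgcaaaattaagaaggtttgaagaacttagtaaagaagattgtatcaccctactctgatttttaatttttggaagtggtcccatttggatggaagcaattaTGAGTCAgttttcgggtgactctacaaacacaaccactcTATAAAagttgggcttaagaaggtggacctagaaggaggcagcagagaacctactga
Mmp13, chr9:7272264-7272563, plus strand: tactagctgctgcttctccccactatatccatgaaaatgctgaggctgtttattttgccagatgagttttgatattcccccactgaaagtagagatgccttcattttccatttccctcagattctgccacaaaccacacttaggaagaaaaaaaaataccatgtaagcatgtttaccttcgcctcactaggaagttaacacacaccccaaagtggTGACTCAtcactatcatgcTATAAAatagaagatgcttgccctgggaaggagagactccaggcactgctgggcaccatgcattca
Mmp11, chr10:75932453-75932752, minus strand: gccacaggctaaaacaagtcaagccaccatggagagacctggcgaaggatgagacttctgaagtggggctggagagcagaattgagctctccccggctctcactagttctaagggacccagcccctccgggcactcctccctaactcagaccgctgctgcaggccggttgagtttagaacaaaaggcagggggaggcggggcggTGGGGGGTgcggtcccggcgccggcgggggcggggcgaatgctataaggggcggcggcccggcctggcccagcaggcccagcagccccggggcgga

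The proximal promoters of Mmp3 and Mmp13 each hold the AP-1 letters followed by the TATA letters, at different spacings. Mmp3 holds TGAGTCA starting 46 bases before the annotated start and TATAAA starting 7 bases before it, and Mmp13 holds TGACTCA 35 bases and TATAAA 16 bases before it. Of 32851 promoter windows of the same length, 7.81% hold the AP-1 letters and 13.6% the TATA letters. The share that holds both was not counted. The Glis core is in 1.53% of windows. Among the members it occurs in Mmp11, starting 46 bases before the start, and, as ACCCCCCA on the other strand, in Timp4, starting 238 bases before it. The windows of Timp1, Mmp14, Timp2 and Timp3 hold none of the 3 motifs, which says only that these letters are not in those 300 bases. Base composition differed as well, from 68.7% G or C in the Timp2 window to 43.7% in Mmp13 and 40.0% in Mmp3. A match of letters is a description and shows no binding.

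On the low-iodine diet, KO2 thyroids held less Timp1, Mmp14 and Mmp2 RNA than WT thyroids. Timp1, the inducible inhibitor, fell 2.04-fold, Mmp2 1.83-fold and Mmp14, the activator of Mmp2, 1.66-fold. The other 7 members did not pass the test (limma). Over all genes tested, 7.18% were called lower and 7.81% higher in this comparison, against 3 lower and 0 higher of the 10 members. The median difference of the members was −0.22, beside −0.02 for all genes. Without WT low-iodine replicate 2 these medians were 0.10 and 0.11. In whole-thyroid RNA, fewer cells of a type and less RNA per cell cannot be told apart.

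**Figure D1:**
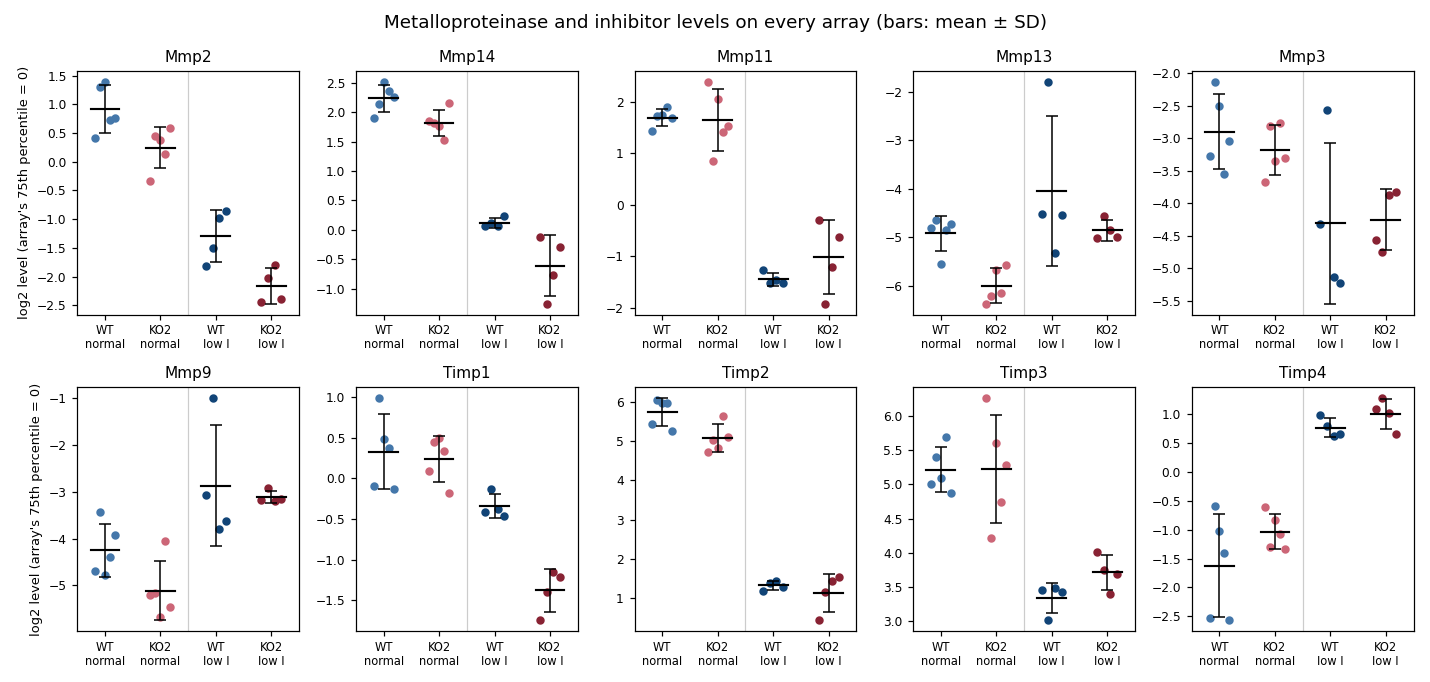
Log2 level of each gene's brightest probe (vertical axis, 0 is the array's 75th percentile, scales differ between panels) on each of the 18 arrays, by group (horizontal axis); bars give the group mean ± SD. The 4 KO2 low-iodine arrays of Timp1 lie between −1.74 and −1.15, below the WT low-iodine arrays at −0.46 to −0.13.

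Timp1 was read at −0.42, −0.13, −0.37 and −0.46 in WT low-iodine replicates 1 to 4 and at −1.74, −1.40, −1.15 and −1.21 in the KO2 replicates. All KO2 arrays lie below all WT arrays. The difference was −1.03 ± 0.23 (SE, n = 4 and 4, limma adjusted p = 0.00615), and −1.20 and −0.86 within the 2 low-iodine slides. On the normal diet the same probe stood at −0.10, 0.99, 0.49, 0.38 and −0.13 in WT and at 0.09, 0.45, 0.49, 0.34 and −0.18 in KO2. These groups overlap throughout, with a difference of −0.09 ± 0.20 (SE, limma adjusted p = 0.915). The genotype differences on the 2 diets differed by −0.94 ± 0.31 (SE), which did not pass the test of the interaction (limma adjusted p = 0.155, unadjusted p = 0.0071).

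A dimmer probe of Timp1 was also lower in KO2 on low iodine. It read −2.56, −2.07, −2.35 and −2.84 in WT and −4.60, −3.94, −4.18 and −4.69 in KO2 on low iodine, again without overlap. In a limma fit on all named probes the difference was −1.90 ± 0.28 (SE, adjusted p = 2.6e-04), against −1.03 ± 0.23 (SE, adjusted p = 0.00712) for the brighter probe. With normexp background the values were −0.83 and −0.84, so the dimmer probe's difference was larger without that correction and not with it. On the normal diet the dimmer probe differed by −0.08 ± 0.25 (SE, limma adjusted p = 0.951). Its interaction was −1.82 ± 0.37 (SE, limma adjusted p = 0.0226) and was called in 22 of 24 alternatives of the probe fit, with adjusted p from 0.0032 to 0.138. The brighter probe's interaction was called in 1 of those 24. Timp1 was thus lower in KO2 on low iodine by both probes, and the probes differ in whether the diets are told apart.

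Mmp14 stood at 0.06, 0.11, 0.06 and 0.23 in WT and at −0.12, −1.26, −0.78 and −0.29 in KO2 on low iodine. The WT arrays lie close together and every KO2 array is below them, 1 of them by a small margin. The difference was −0.73 ± 0.21 (SE, limma adjusted p = 0.0298), and −0.29 and −1.17 within the 2 slides. The call was lost without any 1 of WT replicates 1 to 4 or KO2 replicates 2 and 3 (adjusted p from 0.0502 to 0.0850), with median scaling (0.241) and with only the low-iodine arrays in the fit (0.118). The dimmer Mmp14 probe gave −1.02 ± 0.26 (SE, limma adjusted p = 0.0162), with 1 KO2 array inside the WT range, and was called in 22 of 25 alternatives. On the normal diet the brighter and dimmer probes differed by −0.41 and −0.42, neither past the test (limma adjusted p = 0.400 and 0.514 in the probe fit).

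Mmp2, the gelatinase that Mmp14 activates, read −1.82, −1.50, −0.99 and −0.86 in WT and −2.45, −2.02, −1.80 and −2.39 in KO2 on low iodine. The groups meet, with 1 KO2 array just above the lowest WT array. The difference was −0.87 ± 0.27 (SE, limma adjusted p = 0.0379), and −0.76 and −0.98 within the slides. It was not called without WT replicate 3 or 4 or KO2 replicate 1, 2 or 4 (adjusted p from 0.0519 to 0.112), nor with normexp background (0.131), median scaling (0.199), quantile normalization (0.0711) or only the low-iodine arrays (0.0794). On the normal diet the levels were 0.41, 1.31, 1.39, 0.72 and 0.76 in WT and −0.33, 0.46, 0.37, 0.13 and 0.59 in KO2. That is a difference of −0.67 ± 0.24 (SE, limma adjusted p = 0.214), close in size to the low-iodine one, and the interaction was −0.20 ± 0.36 (SE, limma adjusted p = 0.846).

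**Figure D2:**
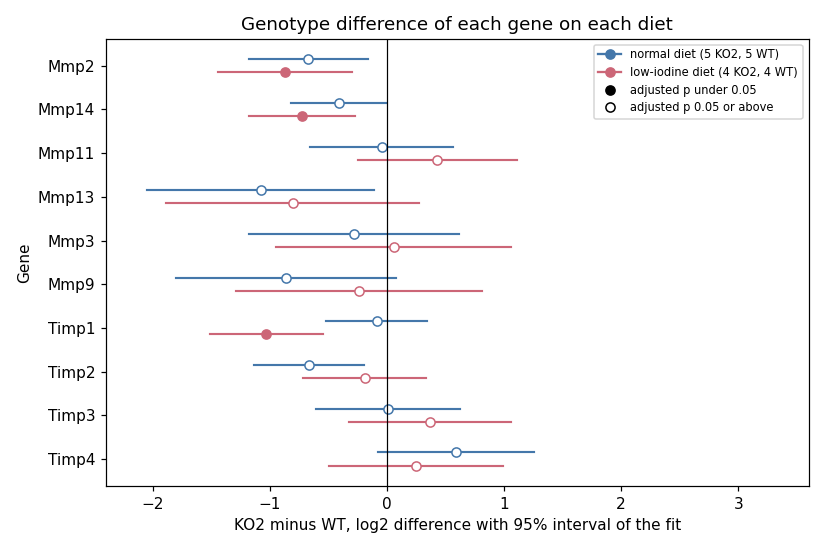
KO2 minus WT log2 difference of each gene (horizontal axis) with the 95% interval of the fit, on the normal diet (blue, 5 and 5 arrays) and the low-iodine diet (red, 4 and 4 arrays); filled points passed the adjusted p of 0.05. Only Timp1, Mmp2 and Mmp14 on low iodine are filled, at −1.03, −0.87 and −0.73.

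The other inhibitors did not pass the test. On low iodine Timp2, the inhibitor in the Mmp14 complex, ranged from 1.19 to 1.46 in WT and from 0.45 to 1.53 in KO2, a difference of −0.19 with a 95% interval of −0.72 to 0.34. Timp3 ranged from 3.02 to 3.48 and from 3.40 to 4.01, a difference of 0.37 (−0.32 to 1.06). Timp4 ranged from 0.62 to 0.97 and from 0.65 to 1.27, a difference of 0.25 (−0.50 to 0.99). Differences of up to about 1 log2 step remain inside 2 of these intervals. Whether Timp1 differs from the other inhibitors in its response was not tested.

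Among the secreted proteases on low iodine, Mmp11 ranged from −1.53 to −1.26 in WT and from −1.92 to −0.30 in KO2, a difference of 0.43 (95% interval −0.25 to 1.11). Mmp3 differed by 0.06 (−0.95 to 1.06), Mmp9 by −0.24 (−1.29 to 0.81) and Mmp13 by −0.81 (−1.89 to 0.28). The WT spread of these 3 genes came from 1 array. In WT low-iodine replicate 2, the array that stands apart, Mmp13 was at −1.80 against −5.34 to −4.52 in the other WT mice, Mmp9 at −0.9998 against −3.80 to −3.06, and Mmp3 at −2.56 against −5.22 to −4.31. Without it the differences were −0.06 ± 0.26 for Mmp13, 0.38 ± 0.36 for Mmp9 and 0.64 ± 0.35 for Mmp3 (SE), and none passed the test. The same array held the highest mean level of the 6 measured neutrophil markers, −1.80 against −4.11 to −3.63 in the other WT low-iodine arrays, and of the 6 cartilage markers, −0.70 against −1.85 to −1.46. A second, dimmer Mmp9 probe, not well above background on these arrays, also read highest on this array. It stood at −5.96 against −8.08 to −7.43 in the other WT low-iodine arrays. The array's median signal was 191.5 at a 75th percentile of 600.4. On those other arrays the median was 76.0 to 81.6 at a 75th percentile of 440.8 to 472.6. The part of the marked cell types and of the array's signal scale in the protease levels was not tested.

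**Figure D3:**
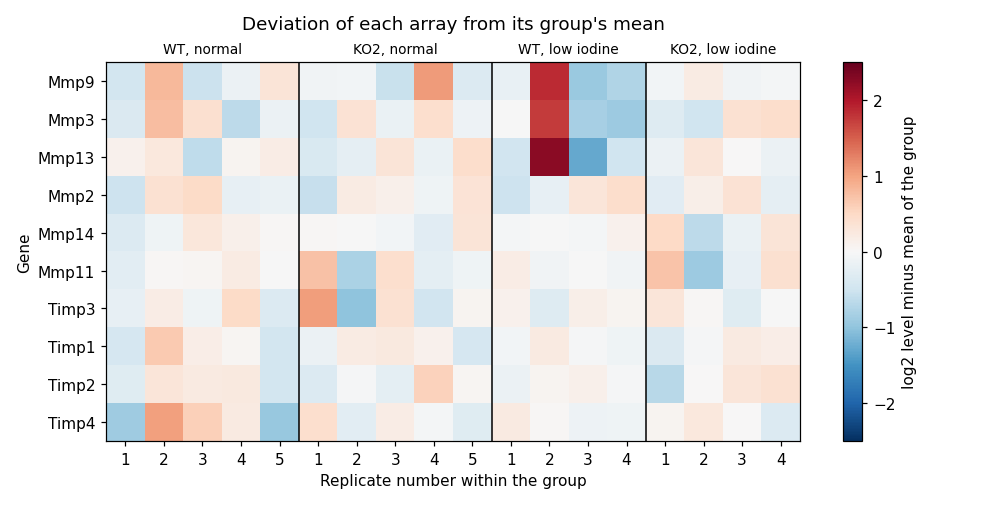
Log2 level of each gene (rows) on each array (columns, replicate number within the group) minus the mean of its group; red is above and blue below the mean. In WT low-iodine replicate 2 the top 3 rows, Mmp9, Mmp3 and Mmp13, are together far above the other arrays of the group.

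Around their group means, the levels of Mmp9 and Mmp3 had a Pearson r of 0.77 over the 18 arrays, Mmp9 and Mmp13 of 0.75, and Mmp3 and Mmp13 of 0.65. Without that 1 array the values were 0.46, 0.19 and −0.08, so the joint variation rests largely on it. Mmp11 and Timp3 also varied together (0.72, and 0.72 without the array), as did Timp1 and Timp4 (0.67 and 0.68). The points share the scaling of their arrays, and these values are a description with no test.

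On the normal diet no member passed the test. Over all genes, 0.876% were called lower and 0.513% higher in KO2. The median of the members was −0.35 beside 0.05 for all genes. At an unadjusted p under 0.05, 4 members were lower in KO2 (Mmp2, Mmp13, Mmp14 and Timp2) and 0 higher, where 13.2% of all genes reached that p in either direction. Mmp13, the collagenase, read −4.81, −4.65, −5.56, −4.85 and −4.73 in WT and −6.37, −6.22, −5.68, −6.16 and −5.57 in KO2. The groups do not overlap, with 5 of 5 WT arrays and 2 of 5 KO2 arrays well above background. The difference was −1.08 ± 0.46 (SE, limma adjusted p = 0.310) and stood at −1.41, −0.82 and −1.18 within the 3 slides. With normexp background, which draws dim values together, it was −0.07. The SE takes in the low-iodine arrays, and without WT low-iodine replicate 2 the same difference had an SE of 0.22 and an adjusted p of 0.0187. It was called in that 1 of 31 alternatives. Timp2 differed by −0.66 ± 0.22 (SE, limma adjusted p = 0.175), from 5.43, 6.04, 5.97, 5.98 and 5.27 in WT and 4.73, 5.03, 4.84, 5.64 and 5.11 in KO2. Mmp9 differed by −0.86 ± 0.44, Mmp3 by −0.28 ± 0.43, Mmp11 by −0.05 ± 0.29, Timp3 by 0.01 ± 0.29 and Timp4 by 0.59 ± 0.31 (SE), with limma adjusted p from 0.430 to 0.995.

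The genotype by diet interaction, which asks whether the KO2 effect differs between the diets, called 0 of the 10 members, with 1 (Timp1) at an unadjusted p under 0.05. Over all genes limma called 0.865% lower and 0.357% higher, and 14.3% reached that unadjusted p in either direction. Under 2 of 30 alternatives limma called Timp1, quantile normalization (adjusted p = 0.0411) and the mean of a gene's probes (adjusted p = 0.0407), within a range of 0.0407 to 0.348 over all of them.

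Between the diets nearly all members differed, as most genes on the array did. In WT, 7 members were lower and 2 higher on low iodine, where 36.5% of all genes were called lower and 39.4% higher. In KO2, 7 were lower and 3 higher, where 36.9% were called lower and 37.5% higher. Timp2 had the widest gap, −4.40 ± 0.24 in WT and −3.93 ± 0.24 in KO2 (SE), followed by Mmp11 at −3.14 ± 0.30 and −2.66 ± 0.30 (SE). Timp4 was higher on the low-iodine arrays by 2.38 ± 0.33 and 2.04 ± 0.33 (SE). Mmp2 differed by −2.21 ± 0.26 and −2.41 ± 0.26 and Timp3 by −1.86 ± 0.31 and −1.51 ± 0.31 (SE). Mmp2, Mmp11, Mmp14, Timp2, Timp3 and Timp4 were called in both genotypes in 30 of 30 alternatives. Mmp9 was not called in WT without WT low-iodine replicate 2 (0.75, limma adjusted p = 0.0572), and Mmp13 was called in KO2 in 18 of 30.

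Different probes of a gene did not always give the same diet difference. The brighter Mmp14 probe gave −2.12 ± 0.20 in WT and the dimmer 0.40 ± 0.25 (SE, limma adjusted p = 0.153). For Timp1 in WT the brighter probe gave −0.67 ± 0.22 and the dimmer 0.43 ± 0.26 (SE, limma adjusted p = 0.146). For Mmp9 the brighter probe was higher on low iodine, by 1.38 ± 0.47 in WT (SE), while the dimmer was not well above background on any of the 8 low-iodine arrays and was on 8 of 10 normal-diet arrays. KO2 against WT within a diet had the same sign by both probes of Timp1 and of Mmp14. The Mmp9 probes gave −0.86 and −0.79 on the normal diet. On low iodine they differed in sign, −0.24 ± 0.50 by the brighter and 0.21 ± 0.60 by the dimmer (SE), neither past the test. With the array set also differing, no diet value is read here as an effect of iodine.

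**Figure D4:**
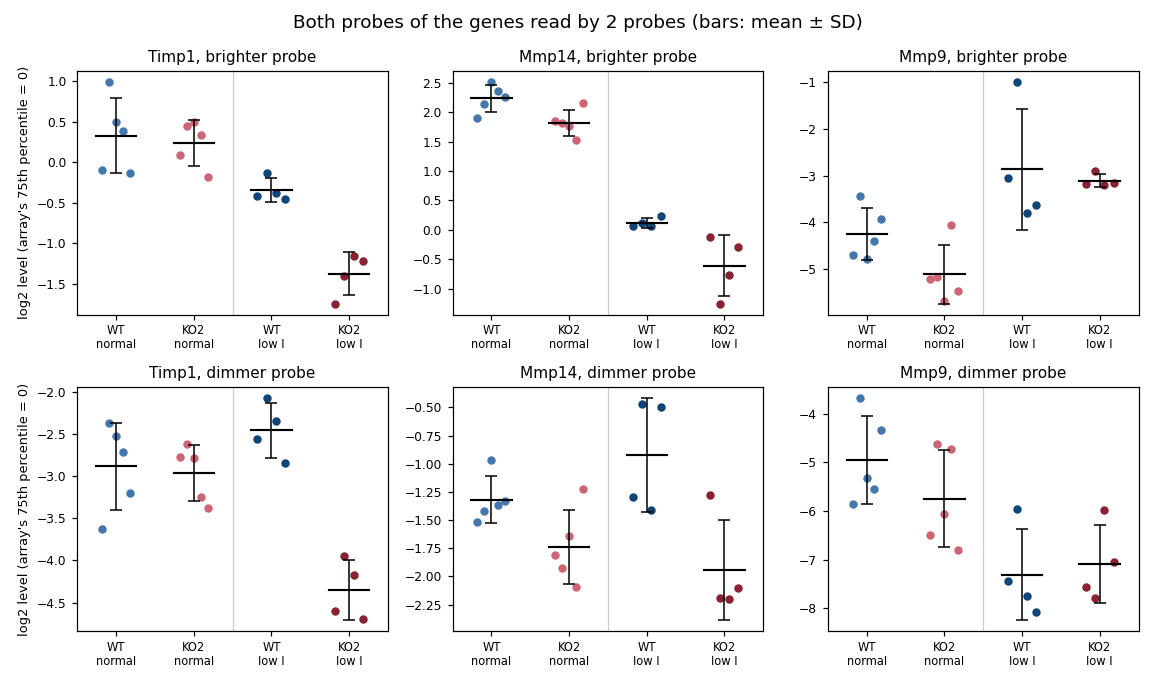
Log2 level on each array (vertical axis) by group (horizontal axis) for both probes of Timp1, Mmp14 and Mmp9; bars give the mean ± SD, and scales differ between panels. KO2 lies below WT on low iodine by both probes of Timp1 and Mmp14, while WT means on low iodine are lower than on the normal diet by the brighter probe of each and, short of the test, higher by the dimmer. The dimmer Mmp9 probe was not well above background on any low-iodine array.

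Ordered by the level of each gene's brightest probe, the 4 groups ran WT normal, KO2 normal, WT low iodine, KO2 low iodine for Mmp2, Mmp14, Timp1 and Timp2. In this order the first neighbours, the genotypes on the normal diet, did not pass the test for any of these genes, and the last, the genotypes on low iodine, passed it for the first 3 and not for Timp2. Mmp3, Mmp11 and Timp3 also had both normal-diet groups on top. Mmp9 and Timp4 had both low-iodine groups on top, and Mmp13 had WT low iodine highest and KO2 normal lowest. The dimmer probes gave other orders: WT low iodine was highest for Timp1 (−2.46) and Mmp14 (−0.92), and the dimmer Mmp9 probe was below both normal-diet groups on low iodine, where it was not well above background.

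Several genes around the members were also lower in KO2 on low iodine, where 7.18% of all genes tested were called lower and 7.81% higher. Of 15 other Mmp genes on the list 12 could be tested, and of these 2 fell and 0 rose, with a median of −0.52 (−0.19 without WT low-iodine replicate 2): Mmp23 (−1.33 ± 0.25 SE, limma adjusted p = 0.0021) and the membrane-anchored Mmp17 (−0.69 ± 0.20 SE, limma adjusted p = 0.0260). Of 20 activators, cofactors and inhibitors outside the Timp family, 8 fell and 0 rose, with a median of −0.77. They included the plasminogen activator Plau (−2.74 ± 0.32 SE), its receptor Plaur (−2.23 ± 0.27 SE), the collagen-binding glycoprotein Sparc (−1.96 ± 0.20 SE) and the procollagen processing enhancer Pcolce (−1.95 ± 0.23 SE), with limma adjusted p from 1.2e-05 to 4.9e-05. Plau activates plasminogen, and plasmin in turn opens several Mmp proenzymes. Furin, which processes the Mmp14 and Mmp11 proenzymes, and the membrane inhibitor Reck, both picked here after their values were seen, did not pass the test (0.35 ± 0.18 and −0.27 ± 0.19, SE).

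Falls and rises in this paragraph are those of KO2 against WT within a diet. Among 8 Adam proteases, relatives of the Mmp enzymes, 5 fell and 0 rose on low iodine, where 7.18% of all genes were called lower. Adam12 fell by 4.12 ± 0.65, with 2 of 4 KO2 arrays well above background, and Adam17, the sheddase that Timp3 blocks, by 0.60 ± 0.15 (SE, limma adjusted p = 4.7e-04 and 0.0133). Without WT low-iodine replicate 2 the count was 3. Of the substrates, 7 of 9 fibrillar collagen genes fell and 0 rose, with a median of −2.34, among them Col1a1 (−3.92 ± 0.45 SE) and Col5a2 (−3.15 ± 0.41 SE). On the normal diet 4 of 9 fell, where 0.876% of all genes were called lower. Col2a1, called on both diets, is also counted in the cartilage list. Of 19 basement membrane and glycoprotein genes, 8 fell and 1 rose on low iodine. Nid2 fell by 2.53 ± 0.19, Col4a1 by 2.07 ± 0.23 and Fn1, fibronectin, by 2.45 ± 0.33 (SE). Col4a4 rose (0.85 ± 0.27 SE, limma adjusted p = 0.0442), and 0 rose without WT low-iodine replicate 2. With all 18 arrays, no gene of the other 4 lists was called on the normal diet. Without WT low-iodine replicate 2, 1 was, Mmp8, higher in KO2 (1.03 ± 0.24 SE, limma adjusted p = 0.0413). Mmp8 was well above background on 0 WT and 0 KO2 normal-diet arrays. The interaction was called lower for 0 of 12 other Mmp genes, 4 of 20 activators and inhibitors (Plau, Plaur, Sparc and Itgb3), 1 of 9 fibrillar collagens, 4 of 19 basement membrane genes and 2 of 8 Adam genes, and higher for none. Without WT low-iodine replicate 2 the interaction of Itgb3 was not called (limma adjusted p = 0.0631), which left 3 of the 20 activators and inhibitors. Over all genes the interaction was called lower for 0.865% and higher for 0.357%.

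**Figure D5:**
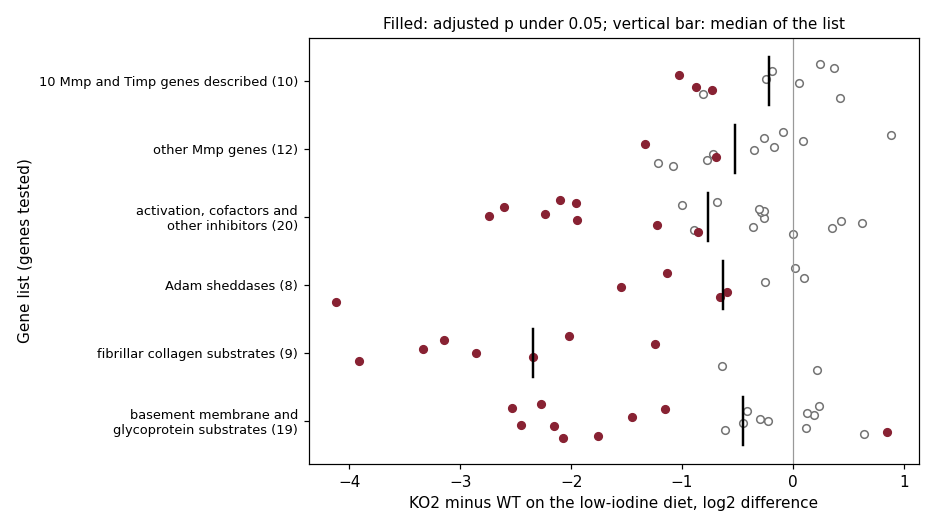
KO2 minus WT log2 difference on the low-iodine diet (horizontal axis) for each tested gene of the lists (vertical axis, number of genes in brackets); filled points passed the adjusted p of 0.05 and bars mark list medians. The medians run from −2.34 for fibrillar collagens to −0.22 for the 10 Mmp and Timp genes, a value that is 0.10 without WT low-iodine replicate 2.

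Markers of other cell types also differed between KO2 and WT. Beside their counts, 7.18% of all genes were called lower and 7.81% higher on low iodine, and 0.876% and 0.513% on the normal diet. On low iodine 3 of 5 endothelial markers fell and 0 rose, with a mean level over the list of 1.95 to 2.19 on the WT arrays and 0.95 to 1.14 on the KO2 arrays. Of 7 fibroblast markers 3 fell and 1, Dcn, rose (0.99 ± 0.23 SE), with list means of 0.39 to 0.89 in WT and −0.83 to −0.25 in KO2. Of 6 cartilage markers 4 fell (−1.85 to −0.70 in WT, −3.22 to −2.90 in KO2, 3 without WT low-iodine replicate 2), of 5 smooth muscle and pericyte markers 2 fell (2.46 to 2.74 and 1.62 to 1.94), and all 4 proliferation markers fell (0.86 to 1.43 and −4.90 to −4.34). None of 7 macrophage markers passed the test (−1.29 to −0.73 and −1.76 to −1.09), and of 6 neutrophil markers 2, S100a8 and S100a9, rose (−4.11 to −1.80 and −2.98 to −2.30). The follicular list had means of 1.89 to 2.13 and 1.85 to 2.24, with 0 of 6 markers lower and 1, Nkx2-1, higher (0.70 ± 0.15 SE). Of 3 C cell markers 2 rose, Calca (1.20 ± 0.19 SE) and Scg2 (1.37 ± 0.33 SE), with list means of 4.17 to 4.49 and 4.38 to 5.40. No adipocyte, skeletal muscle, thymic or parathyroid marker passed the test on low iodine. Some of these lists varied widely between arrays of a group. Skeletal muscle means ran from −2.56 to 2.53 in WT and −2.74 to 1.48 in KO2 on low iodine. On the normal diet they ran from −3.73 to 4.31 and −4.51 to 5.87. Parathyroid means reached down to 0.19 in KO2 on low iodine and −1.18 in KO2 on the normal diet. Among the normal-diet groups, 2 of 7 fibroblast markers were lower in KO2, Col14a1 (−1.75 ± 0.37 SE) and Thy1 (−1.53 ± 0.36 SE), with list means of 2.12 to 2.68 in WT and 0.66 to 2.23 in KO2. All 4 proliferation markers fell there (−3.09 to 0.34 and −5.74 to −3.10), as did 2 of 5 thymic markers, Prss16 and Psmb11 (−3.95 to 0.04 and −5.66 to −2.18), and S100a9 rose. Of the 6 follicular markers on that diet 1 fell in KO2, Slc26a4 (−2.48 ± 0.35 SE), and 1 rose, Nkx2-1 (0.61 ± 0.14 SE). The part of these markers in the normal-diet collagen values and in the Timp1, Mmp14 and Mmp2 differences was not tested.

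The genes whose levels ran most like those of the 3 called members were found over the 18 arrays after each diet was centred, a measure that includes the genotype difference. For Timp1 they were She, Lix1l and Pcdh12 (Pearson r = 0.93 each). On low iodine these genes were lower in KO2 than in WT, by 1.46, 1.35 and 1.93 on the log2 scale. For Mmp2 the most alike were Sdc1 (0.90), Wscd1 and Ppp1r1b (0.86 each). For Mmp14 they were Jazf1 (0.90), Olfml3 (0.86) and Golm1 (0.85). These are descriptions of likeness across arrays that share their scaling.

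Over all genes tested, 249 were called on the normal diet (63.1% of them lower in KO2), 2687 on low iodine (47.9% lower) and 219 for the interaction (70.8% lower). The split moved with the scaling: with no scaling 90.6%, 86.5% and 89.3% were lower, with median scaling 73.1%, 44.9% and 60.0%, and with quantile normalization 69.0%, 47.6% and 59.7%. Of the diet calls, 48.1% were lower in WT and 49.6% in KO2, against 69.3% and 68.5% with median scaling and 56.0% and 60.9% with none. Median scaling moved the median of all genes on low iodine from −0.02 to 0.13, and no scaling moved it to −0.29. Timp1, Mmp14 and Mmp2 kept their direction under each of these scalings.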

How the data were processed

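RNA of 18 thyroids, amplified from 50 ng with the NuGEN Ovation Pico kit per the labels' protocols, was hybridised to single-colour Agilent arrays, 1 array a sample. The deposited scanner files hold processed signal intensity, background-subtracted by Agilent Feature Extraction 12 per the submitters' processing notes, and the deposited value table equals them. Here log2 intensity minus each array's 75th percentile was used, spots of a probe were averaged, and 82 probes whose spots were all outlier-flagged on some array were left out. Probes were named by unversioned accession through RefSeq's GRCm38.p6 table: 28215 of 41174 matched 1 gene, 12959 none. A probe was kept where at least 4 of the 18 arrays read it well above background, and a gene was read by its brightest probe. limma 3.58.1 (R 4.3.3) fitted the 4 group means, with Benjamini-Hochberg adjustment over 17924 genes and a threshold of 0.05, after a check on simulated data. Figures were drawn with matplotlib 3.10.9.

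The text names all 10 members with each probe, up to 4 called genes of each list with the smallest p, and the 3 genes most correlated with Mmp2, Mmp14 and Timp1; others are named as chosen after their values were seen or because a count was 5 or fewer. Members and lists were chosen with earlier results of these data known. Alternatives changed the background correction (normexp, offset 50, on median spot signal, since the planned mean signal was not in the files used here), scaling, filter, probe rule, flags, variance prior, slide, replicate block and arrays in the fit, and left out each array. Chosen after seeing the data were the lists, medians and correlations without WT low-iodine replicate 2 and the alternatives of the probe fit. Same-numbered samples were not treated as pairs in the main fit. One marker of the follicular list is not reported here and was left out of its values.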

Additional observations from a re-analysis of the deposited data

Results flagged for a closer look

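In 3 of 40 groups of 4 or 5 arrays, 1 array lay far from the others of its group for 1 gene, where chance alone flags about 1 in 20. The 40 groups share the same 18 arrays and are not independent. Mmp13 and Mmp9 in WT low-iodine replicate 2, described above, were not among those flagged. Mmp13 stood at −5.56 in WT normal replicate 3, with the nearest WT normal array at −4.85. Mmp9 stood at −2.91 in KO2 low-iodine replicate 2, with the nearest at −3.16. Timp3 stood at 3.02 in WT low-iodine replicate 2, the array of the highest median signal, with the nearest at 3.42. Without that array the Timp3 difference between KO2 and WT on low iodine was 0.26 ± 0.35 (SE), against 0.37 ± 0.33 with it.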

How the results depend on the processing

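Timp1 on low iodine was called in 31 of 31 alternatives, from −1.46 to −0.84 (limma adjusted p from 5.8e-04 to 0.0232). Mmp14 was called in 23 of 31 (−0.99 to −0.51) and Mmp2 in 22 of 31 (−1.13 to −0.55), all of the same sign. The low-iodine count of members fell from 3 to 1 with median scaling and to 1 with only the compared arrays in the fit, and ran from 1 to 3 as each array was left out. The interaction count rose from 0 to 1 with quantile normalization and to 1 with the mean of a gene's probes. The normal-diet count ran from 0 to 1 as each array was left out. The diet difference reversed for Mmp13 in KO2 with quantile normalization (−0.76) and for Mmp9 in WT with the mean of its probes (−0.49), where the dimmer probe is averaged in; the cause was otherwise not tested. Over all genes, the normal-diet count of 249 became 3 with only the compared arrays and 394 with a trended, robust prior, and ran from 123 to 675 as arrays were left out (675 without KO2 normal replicate 4). The low-iodine count of 2687 became 1642 with median scaling and 1673 with only the compared arrays. The interaction count of 219 became 703 with quantile normalization, 90 with median scaling, 131 with no scaling and 356 with the trended, robust prior, and ran from 131 to 230 as arrays were left out.

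With the replicate number as a block, 0, 3 and 0 members were called on the normal diet, on low iodine and for the interaction, the counts without it. The block moved the counts over all genes from 249 to 160, 2687 to 2760 and 219 to 183. Deviations of same-numbered samples correlated from −0.04 to 0.32 on the normal diet, with 0.29 for replicate 2 and 0.32 for replicate 5. On low iodine the range was 0.03 to 0.13. Differently numbered samples were not compared, so whether same-numbered samples share more than a number was not tested. Dim members are limited by signal: Mmp13 was well above background on 2 of 5 KO2 normal-diet arrays.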
